A study of Mus musculus with 12 samples.

Results

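The Mef2 transcription factors and the class IIa histone deacetylases that restrain them were followed in bulk RNA-seq libraries of cultured mouse muscle stem cells. The genes were taken from the table by name and make up 8 of the 23586 genes measured: Mef2a, Mef2b, Mef2c and Mef2d, and Hdac4, Hdac5, Hdac7 and Hdac9. All cells carried the Pax3nLacZ-IRES-GFP reporter allele, in which GFP follows the Pax3 gene, and were sorted into GFP-positive (labelled PAX3+) and GFP-negative (labelled PAX3-) cells before culture. Each population was transfected with 2 µg of a pCR3 plasmid carrying mouse Six2 cDNA, or with 2 µg of the empty pCR3 plasmid as control, using Lipofectamine LTX. The 4 groups are therefore GFP-positive cells with the SIX2 label, GFP-positive cells with the control label, GFP-negative cells with the SIX2 label and GFP-negative cells with the control label, with 3 libraries each. All were grown in medium with 20% fetal calf serum and 4 ng/mL basic FGF, and at least 50000 cells went into each RNA sample. Whether libraries of 1 group are separate animals or cultures is not given, so every p-value measures the spread between libraries, which may be technical, and the labels give no age or sex of the mice.

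Mef2 proteins are MADS-box factors that bind an A/T-rich DNA element and work together with MyoD-family factors to switch on muscle genes. Class IIa deacetylases have little catalytic activity of their own on acetylated histones. They bind Mef2 directly and bring in corepressors. Calcium/calmodulin-dependent kinases, protein kinase D, salt-inducible kinases and AMPK phosphorylate them, which lets 14-3-3 proteins hold them in the cytoplasm and frees Mef2. In satellite cells, the stem cells of muscle, Mef2 activity is low in quiescence and rises with differentiation. RNA levels such as those measured here do not show where the deacetylases were in the cell or whether they were phosphorylated.

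Depth, in units of 1e6 reads, moved with the plasmid label. GFP-positive libraries held 12.6 to 15.5 with the SIX2 label and 31.3 to 47.3 with the control label, while GFP-negative libraries held 34.0 to 40.2 with the SIX2 label and 12.4 to 33.2 with the control label. With reads thinned at random to the smallest library, 3 of the 7 tested members were called in GFP-positive cells, beside 3010 of 14580 genes. In GFP-negative cells 4 of 7 were called, beside 3684 of 14580 genes. Without thinning the members called were 3 and 4, beside 3394 and 4075 genes. The part of depth in the differences was not tested. Values are the authors' normalized counts, reads divided by a library size factor, and a read was worth 0.553 to 2.14 normalized counts.

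Six2 itself rested on 2 to 36 reads a library and did not separate the labels. Among GFP-positive cells it had 28.6, 23.4 and 6.51 normalized counts with the SIX2 label and 5.35, 13.3 and 3.37 with the control label. Among GFP-negative cells it had 22.8, 23.7 and 19.2 with the SIX2 label and 4.28, 15.9 and 24.4 with the control label. In GFP-positive cells the SIX2-minus-control difference was 1.26 ± 0.68 on the log2 scale (SE, limma-trend adjusted p = 0.209), and in GFP-negative cells it was 0.80 ± 0.68 (adjusted p = 0.421). Pax3, the gene the sort was based on, averaged 72.2 ± 19.0 normalized counts in GFP-positive and 71.4 ± 2.79 in GFP-negative control libraries (SD, n = 3 each), which differed by -0.01 ± 0.41 on the log2 scale (SE, limma-trend adjusted p = 0.991). With the SIX2 label Pax3 averaged 10.4 ± 5.69 in GFP-positive cells, a 7.08-fold fall (limma-trend adjusted p = 0.00029), and 16.5 ± 2.72 in GFP-negative cells, a 4.16-fold fall (adjusted p = 0.0022). The GFP-positive fold rests on 7, 2 and 9 reads of Pax3 with the SIX2 label, against 123, 113 and 71 with the control label. Pax3 thus separated the plasmid labels but not the sorted control populations, and Six2 did not separate the plasmid labels, so the groups are called by their labels throughout. Muscle markers were high everywhere: 8 marker genes summed to 298800 to 324817 normalized counts in GFP-positive SIX2, 328192 to 346108 in GFP-positive control, 242338 to 278020 in GFP-negative SIX2 and 337911 to 357534 in GFP-negative control libraries, with Des the most abundant. Of these 8, 3 rose and 1 fell with the SIX2 label in GFP-positive cells, beside 12.1% of all genes called higher and 11.2% lower. In GFP-negative cells 3 rose and 4 fell, beside 13.6% of all genes called higher and 14.3% lower. Those that rose in both were Vcam1 (log2 differences 1.63 in GFP-positive and 1.41 in GFP-negative cells, limma-trend adjusted p = 4.39e-06 and 1.11e-05), Myf5 (0.77 and 1.32, adjusted p = 0.000353 and 6.47e-06) and Pax7 (0.79 and 0.58, adjusted p = 0.0126 and 0.0481), and Des fell in both, while Cdh15, Itga7 and Chrna1 fell in GFP-negative cells (-0.29, -0.32 and -0.20). Of 8 endothelial markers none passed the expression filter, and their sum stayed at 9.02 to 45.6 in all libraries. Macrophage markers summed to 80.4 to 116, 101 to 106, 70.5 to 104 and 96.7 to 112 in the groups in the same order, and fibro-adipogenic markers to 73.2 to 85.7, 31.4 to 86.1, 75.7 to 93.8 and 38.5 to 55.7. Schwann cell markers, led by Erbb3, had lower sums with the SIX2 label, at 2687 to 3147, 3433 to 4082, 2061 to 2752 and 3483 to 4172, and smooth muscle markers, led by Acta2, summed to 52017 to 56886, 53629 to 56648, 48930 to 51695 and 53422 to 59392. Single markers of other cell types were called with the SIX2 label, beside 23.3% of all genes in GFP-positive and 27.9% in GFP-negative cells. Of 3 tested fibro-adipogenic markers only Ly6a was called, higher in both (2.36 and 1.75, on 3 to 65 reads). Of 3 tested macrophage markers only Csf1r was, higher in both (2.07 and 2.44, on 1 to 54 reads). The uncalled Itgam (-0.32 and -1.56), Cd68 (-1.10 and -0.13) and Pdgfra (-0.72 and -0.80) had negative differences and Cd34 (0.67 and 0.48) positive ones. Of 3 tested Schwann cell markers only Erbb3 was called, lower in both (-0.43 and -0.68). Of 5 tested smooth muscle markers, Notch3 rose (1.51 and 1.41) and Cspg4 fell (-0.84 and -0.78) in both. Pdgfrb rose in GFP-positive (0.87) and Rgs5 in GFP-negative cells (1.69), where Acta2 fell (-0.16). The part of these cell types in the results was not tested. In bulk RNA, fewer cells of a type and less RNA per cell cannot be told apart.

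Of the 8 genes, 7 passed the filter of 10 normalized counts in at least 3 libraries and entered the test over 14580 genes, a moderated linear model on log2(normalized count + 1) called limma-trend, with p-values adjusted over all tested genes and a threshold of 0.05. Mef2b did not pass. With the SIX2 label, GFP-negative cells had lower Mef2a, Mef2c, Mef2d and Hdac5, and GFP-positive cells had lower Mef2c and Hdac5 and higher Hdac7. In GFP-negative cells 4 of 7 genes were called, all lower, where 27.9% of all tested genes were called and 14.3% were called lower. In GFP-positive cells 3 of 7 were called, where 23.3% of all tested genes were called, with 1 higher (12.1% of all genes) and 2 lower (11.2%). The median log2 difference of the 7 genes was -0.24 in GFP-positive cells, beside -0.01 over all genes, and -0.41 in GFP-negative cells, beside 0.00. The SIX2 and control libraries did not overlap for 3 of 7 genes in GFP-positive cells, beside 36.8% of all genes, and for 5 of 7 in GFP-negative cells, beside 46.3%. Both comparisons thus stand on a background in which many genes were called.

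**Figure D1:**
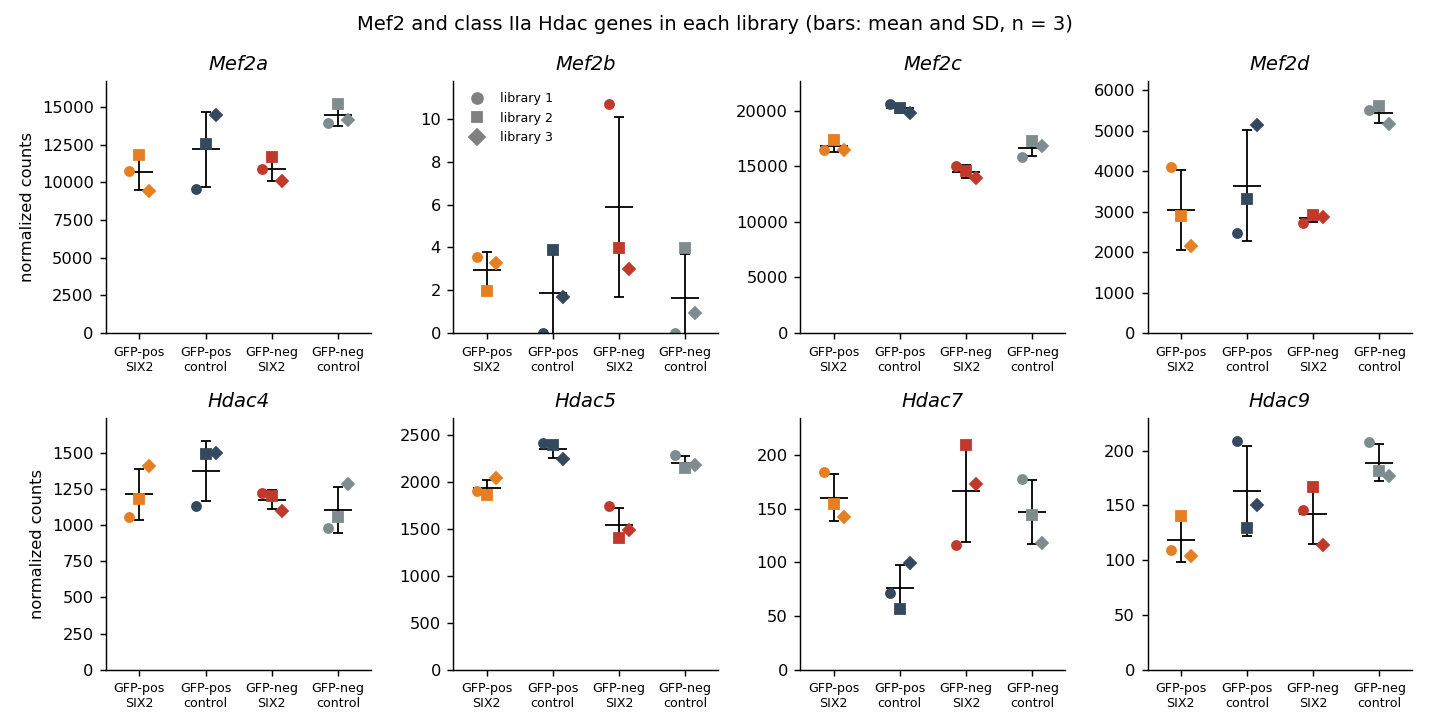
Normalized counts (vertical axis, from 0) of the 8 genes in every library, grouped from left to right as GFP-positive SIX2, GFP-positive control, GFP-negative SIX2 and GFP-negative control; symbols are libraries and bars are means ± SD (n = 3), ended at 0 for Mef2b. Mef2d and Mef2a are on average highest in the GFP-negative control libraries, Hdac7 is lowest in the GFP-positive control libraries, and Mef2b stays at or below 10.7 normalized counts.

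To compare genes with each other, normalized counts were divided by the length of the longest coding transcript in kilobases. On that scale Mef2c and Mef2a were the main Mef2 RNAs, Mef2d came next and Mef2b was near 0. Mef2c averaged 2673 ± 83.4, 3217 ± 64.8, 2313 ± 91.6 and 2649 ± 116 normalized counts per kb in GFP-positive SIX2, GFP-positive control, GFP-negative SIX2 and GFP-negative control libraries (SD, n = 3 each, as for all means per kb). Mef2a averaged 1927 ± 218, 2201 ± 447, 1966 ± 146 and 2607 ± 121 in the same groups. In GFP-negative control libraries the means of Mef2c and Mef2a lay within their SD of each other, while in the other 3 groups Mef2c was the higher. Mef2d averaged 564 ± 183, 676 ± 253, 525 ± 18.3 and 1006 ± 43.1.

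Among the deacetylases Hdac5 was the main RNA, followed by Hdac4, with Hdac7 and Hdac9 far below. Hdac5 averaged 398 ± 19.2, 483 ± 18.8, 318 ± 35.4 and 453 ± 16 normalized counts per kb in the 4 groups in the same order, and Hdac4 averaged 150 ± 21.8, 169 ± 25.9, 145 ± 8.15 and 136 ± 19.4. Hdac7 averaged 37.8 ± 5.15, 18.0 ± 5.13, 39.3 ± 11.2 and 34.7 ± 7.07, and Hdac9 14.8 ± 2.47, 20.5 ± 5.21, 17.9 ± 3.4 and 23.8 ± 2.1. The order of Hdac7 and Hdac9 was not the same in all groups: Hdac7 was higher than Hdac9 except in GFP-positive control libraries, where the means lay within their SDs. Summed over the family, Mef2 RNA came to 5166 ± 387, 6095 ± 627, 4809 ± 211 and 6263 ± 244 normalized counts per kb, and class IIa deacetylase RNA to 600 ± 33.9, 691 ± 14.1, 520 ± 30.0 and 648 ± 17.8. In every group the summed Mef2 level was thus several times the summed deacetylase level.

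As a share of the summed Mef2 level, Mef2d took 10.8 ± 3.03% in GFP-positive SIX2, 10.9 ± 2.99% in GFP-positive control, 10.9 ± 0.653% in GFP-negative SIX2 and 16.1 ± 0.721% in GFP-negative control libraries. Mef2a took 37.2 ± 1.76%, 35.9 ± 3.81%, 40.9 ± 1.4% and 41.6 ± 0.355%, and Mef2c 51.9 ± 3.26%, 53.2 ± 6.58%, 48.1 ± 1.32% and 42.3 ± 0.839%. GFP-negative control cells therefore had the largest mean share of Mef2d and the smallest of Mef2c. Hdac5 held 66.3 ± 1.13%, 70.0 ± 3.03%, 61.0 ± 3.85% and 70.0 ± 1.58% of the deacetylase level, and Hdac7 6.34 ± 1.14%, 2.6 ± 0.763%, 7.63 ± 2.45% and 5.36 ± 1.06%. Dividing by merged exon length instead raised the Mef2d share to 21.8%, 21.9%, 22.1% and 30.8% with the same group highest.

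**Figure D2:**
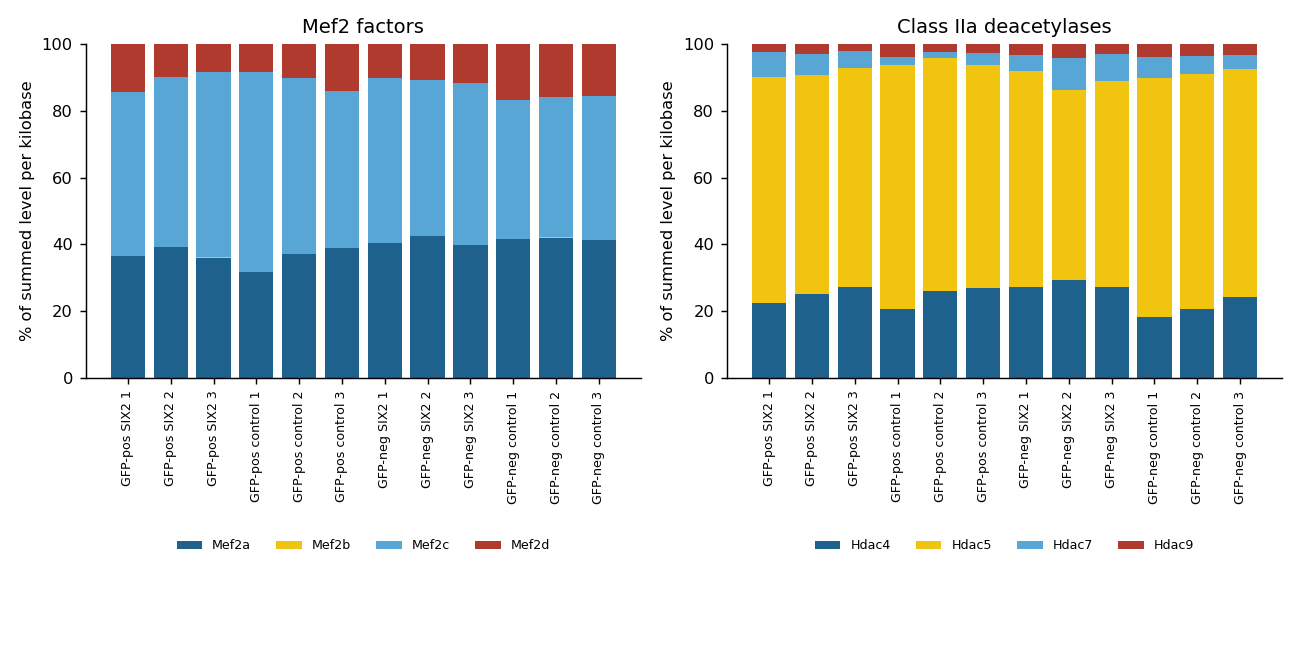
Stacked shares (percent of the summed normalized counts per kb, vertical axis) of the Mef2 genes and of the class IIa deacetylases in each of the 12 libraries, in the order GFP-positive SIX2, GFP-positive control, GFP-negative SIX2, GFP-negative control. The Mef2d share runs from 8.4% to 16.9% and the Hdac5 share from 56.9% to 73.1%, and Mef2b, at most 0.164%, is too small to see.

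RefSeq promoter windows of GRCm38.p6, 250 bases before to 50 after each annotated start, were found for all 8 genes, 14 windows in all, and were searched on both strands for the MEF2 consensus, the MEF3 site TCAGGTTTC bound by SIX-family factors, the E-box CANNTG bound by MyoD-family factors and the GC box GGGCGG. The MEF2 consensus was present in 2 of the 14 windows, those of Mef2a and Hdac5, beside 3.19% of 32851 windows of all genes. The MEF3 letters were in none, beside 0.429% of all windows. E-boxes were in 8 windows, beside 72.3%, and GC boxes in 6, beside 35.7%. The 5 genes that were called in any comparison are shown, as 150 bases that end 15 bases into the transcript, 5′ to 3′ on the gene's own strand, with the searched motifs in capitals. They lie at chr7:67372844-67372993 on the minus strand (Mef2a), chr13:83503899-83504048 on the plus strand (Mef2c, the most upstream of 3 starts), chr3:88142237-88142386 on the plus strand (Mef2d), chr11:102230158-102230307 on the minus strand (Hdac5) and chr15:97844488-97844637 on the minus strand (Hdac7, the most upstream of 4 starts).
Mef2a: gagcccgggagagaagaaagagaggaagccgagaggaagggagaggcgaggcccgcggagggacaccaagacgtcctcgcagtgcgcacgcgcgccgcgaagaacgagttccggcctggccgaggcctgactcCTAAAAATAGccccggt
Mef2c: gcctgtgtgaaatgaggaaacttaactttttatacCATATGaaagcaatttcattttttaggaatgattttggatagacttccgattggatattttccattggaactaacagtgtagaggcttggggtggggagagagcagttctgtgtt
Mef2d: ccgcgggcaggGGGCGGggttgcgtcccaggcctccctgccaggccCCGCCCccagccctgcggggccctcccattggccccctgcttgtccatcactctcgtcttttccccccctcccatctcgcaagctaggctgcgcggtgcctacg
Hdac5: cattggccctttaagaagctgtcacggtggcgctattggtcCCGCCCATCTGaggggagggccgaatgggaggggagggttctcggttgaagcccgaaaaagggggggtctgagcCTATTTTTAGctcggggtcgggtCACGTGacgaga
Hdac7: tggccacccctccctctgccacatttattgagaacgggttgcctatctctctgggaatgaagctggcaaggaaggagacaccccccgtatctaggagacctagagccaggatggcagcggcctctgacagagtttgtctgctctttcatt
The MEF2 letters begin at -2 in Mef2a, where they span the start, and at -20 in Hdac5, where they lie before it. Hdac5 also holds a GC box, read as its reverse complement, which shares 1 base with an E-box, and a second E-box after the MEF2 letters. Mef2d has a pair of GC boxes and Mef2c an E-box, and the stretch of Hdac7 holds none of the 4 motifs. A match is a string of letters and not a bound site, and no binding was measured.

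Mef2a (ENSMUSG00000030557.17, GRCm38 chr7:67231163-67372858, minus strand) encodes one of the broadly expressed Mef2 factors. GFP-positive cells had 10768, 11826 and 9413 normalized counts with the SIX2 label and 9547, 12566 and 14455 with the control label. The 2 GFP-positive groups overlapped, and the log2 difference was -0.18 ± 0.12 (SE, limma-trend adjusted p = 0.338). In GFP-negative cells it was 10865, 11712 and 10092 with the SIX2 label, against 13951, 15202 and 14157 with the control label. These groups did not overlap, and Mef2a fell 1.33-fold with the SIX2 label (log2 difference -0.41 ± 0.12, limma-trend adjusted p = 0.0248). The call was lost after quantile normalization (-0.35, adjusted p = 0.0596) and without replicate 1 (adjusted p = 0.0563) or 3 (-0.35, adjusted p = 0.0907) of the GFP-negative SIX2 libraries or replicate 2 (-0.37, adjusted p = 0.0855) or 3 (adjusted p = 0.0538) of the GFP-negative control libraries. In GFP-positive cells, leaving out control replicate 1, the lowest of the 3, gave -0.34 and a limma-trend adjusted p of 0.0286. Mef2a shares exons on the opposite strand with Lysmd4, which these unstranded reads cannot separate, and Lysmd4 was not called in either population.

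Mef2b (ENSMUSG00000079033.10, chr8:70139711-70167488, plus strand), the Mef2 factor best known from lymphoid cells, was barely detected. It had 0 to 15 reads a library and 46 reads in all. In GFP-positive cells this came to 3.57, 1.95 and 3.26 normalized counts with the SIX2 label and 0, 3.87 and 1.69 with the control label. In GFP-negative cells it came to 10.7, 3.95 and 3.01 with the SIX2 label and 0, 3.96 and 0.938 with the control label. Without the filter on low values, the limma-trend test called Mef2b in no comparison. At this depth 0 reads allow up to 3 reads, or 2.29 normalized counts in the GFP-positive and 6.42 in the GFP-negative control library concerned, for counting error only. Part of the few reads may belong to Borcs8, which shares exons with Mef2b on the same strand.

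Mef2c (ENSMUSG00000005583.16, chr13:83504034-83667080, plus strand), which is needed for the assembly of the sarcomere in skeletal muscle, had the smallest standard errors of the Mef2 genes. GFP-positive cells had 16483, 17381 and 16466 normalized counts with the SIX2 label, against 20569, 20250 and 19761 with the control label. All 3 SIX2 libraries were below all 3 control libraries, and Mef2c fell 1.2-fold (log2 difference -0.27 ± 0.05, limma-trend adjusted p = 0.00247). In GFP-negative cells the counts were 15059, 14591 and 13914 with the SIX2 label, against 15834, 17262 and 16794 with the control label. The groups again did not overlap, and the log2 difference was -0.20 ± 0.05 (limma-trend adjusted p = 0.0134). This second call was lost after quantile normalization (-0.13, adjusted p = 0.0989) and without replicate 3 of the GFP-negative SIX2 libraries (adjusted p = 0.0505) or replicate 2 of the GFP-negative control libraries (adjusted p = 0.0678). The call in GFP-positive cells held under all 15 alternative settings and all 12 leave-outs of a library, with log2 differences between -0.27 and -0.22 under the settings. Mef2c transcripts are poor in GC, at percentile 9.56 of all genes, and GC-poor transcripts stood higher in GFP-negative SIX2 libraries (median log2 deviations 0.0992 to 0.157) than in GFP-negative control libraries (-0.106 to -0.0285). With the trend on transcript GC removed, the GFP-negative difference of Mef2c was -0.36 (limma-trend adjusted p = 0.000304).

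Mef2d (ENSMUSG00000001419.17, chr3:88142372-88172086, plus strand), whose transcripts are alternatively spliced in muscle into a form that protein kinase A does not restrain, had the largest change of the Mef2 genes. GFP-negative cells had 2722, 2908 and 2873 normalized counts with the SIX2 label, against 5524, 5606 and 5168 with the control label. The highest SIX2 library was far below the lowest control library, and Mef2d fell by 47.8% (log2 difference -0.94 ± 0.23, SE, limma-trend adjusted p = 0.00785). All 15 alternative settings and 12 leave-outs kept the call, with log2 differences between -0.97 and -0.84 over both. In GFP-positive cells the libraries spread widely, at 4103, 2890 and 2151 with the SIX2 label and 2475, 3320 and 5150 with the control label. These groups overlapped throughout, and the log2 difference was -0.24 ± 0.23 (limma-trend adjusted p = 0.495), which ran between 0.04 without control replicate 3 and -0.49 without control replicate 1. The GFP-positive difference minus the GFP-negative one was 0.69 ± 0.32 (SE, limma-trend adjusted p = 0.30), so that Mef2d was not shown to respond differently in them. Mef2d overlaps 1700113A16Rik on the opposite strand over 531 bases, and that gene was lower in the GFP-negative SIX2 libraries, at 21.1 to 33.7 normalized counts, against 44.1 to 60.3 in the GFP-negative control libraries (log2 difference -0.91, limma-trend adjusted p = 0.0466). Without strand, reads of the pair cannot be told apart.

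Hdac4 (ENSMUSG00000026313.16, chr1:91928779-92195699, minus strand), which in denervated muscle links loss of nerve input to gene expression, was called in no comparison by limma-trend as described above, and with library weights only between the control populations (0.39, limma-trend adjusted p = 0.0308). In GFP-positive cells it had 1056, 1179 and 1404 normalized counts with the SIX2 label and 1129, 1492 and 1494 with the control label (-0.18 ± 0.13 on the log2 scale, SE, limma-trend adjusted p = 0.391). In GFP-negative cells they were 1220, 1203 and 1098 with the SIX2 label and 979, 1052 and 1280 with the control label (0.10 ± 0.13, limma-trend adjusted p = 0.638). The groups overlapped in both populations.

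Hdac5 (ENSMUSG00000008855.17, chr11:102194432-102230166, minus strand), a signal-dependent Mef2 repressor in striated muscle, was lower with the SIX2 label in both populations. GFP-positive cells had 1899, 1855 and 2034 normalized counts with the SIX2 label, against 2406, 2389 and 2240 with the control label, and the groups did not overlap (log2 difference -0.28 ± 0.08, SE, limma-trend adjusted p = 0.0224). GFP-negative cells had 1736, 1406 and 1487 with the SIX2 label, against 2288, 2140 and 2173 with the control label, again without overlap. In GFP-negative cells Hdac5 fell 1.43-fold (log2 difference -0.52 ± 0.08, limma-trend adjusted p = 0.000415), a call kept under all 15 settings and 12 leave-outs. The GFP-positive call was lost after quantile normalization (-0.24, adjusted p = 0.0629) and without replicate 1 (adjusted p = 0.0585) or 2 (adjusted p = 0.0757) of the SIX2 or replicate 1 (adjusted p = 0.0727) or 2 (adjusted p = 0.067) of the control libraries. Hdac5 transcripts are rich in GC, at percentile 93.2 of all genes, and with the trend on GC removed the GFP-negative difference was -0.37 (limma-trend adjusted p = 0.00334). The plasmid-label effect did not differ detectably between the populations (0.24 ± 0.11, limma-trend adjusted p = 0.319).

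Hdac7 (ENSMUSG00000022475.19, chr15:97792664-97844502, minus strand), known from endothelial cells and thymocytes and, in the mouse C2C12 line, as a Mef2 repressor whose export accompanies differentiation, was the only one of the 7 tested genes that rose with the SIX2 label. In GFP-positive cells it had 184, 154 and 142 normalized counts with the SIX2 label, against 71.1, 57.0 and 99.6 with the control label. The groups did not overlap, and Hdac7 rose 2.13-fold (log2 difference 1.09 ± 0.26, SE, limma-trend adjusted p = 0.0077), on 79 to 103 reads in SIX2 and 93 to 118 reads in control libraries. In GFP-negative cells it had 116, 209 and 173 normalized counts with the SIX2 label and 178, 144 and 118 with the control label, which overlapped (log2 difference 0.15 ± 0.26, limma-trend adjusted p = 0.70). The GFP-positive control libraries were the low group, and the ranges of the other 3 groups overlapped. The GFP-positive call held under all 15 settings (0.88 to 1.17) and all 12 leave-outs (0.91 to 1.31). The GFP-positive difference minus the GFP-negative one was 0.94 ± 0.36 (SE, limma-trend adjusted p = 0.22). Hdac7 overlaps Slc48a1 on the opposite strand over 29 bases. Slc48a1, a heme transporter gene, rose too, at a higher level, with 1749 ± 114 normalized counts in GFP-positive SIX2 and 1383 ± 84.0 in GFP-positive control libraries (SD, n = 3 each, log2 difference 0.34 ± 0.08, limma-trend adjusted p = 0.00964). The part of its reads in the Hdac7 values was not tested. Markers of endothelial cells, in which Hdac7 is also known, were at 12.5 to 44.8 summed normalized counts in GFP-positive SIX2 and 17.7 to 45.6 in GFP-positive control libraries.

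Hdac9 (ENSMUSG00000004698.11, chr12:34047580-34917095, minus strand), which Mef2 itself activates in mouse muscle, was not called with either label contrast. In GFP-positive cells it had 109, 140 and 104 normalized counts with the SIX2 label and 209, 129 and 150 with the control label (log2 difference -0.44 ± 0.21, SE, limma-trend adjusted p = 0.151). In GFP-negative cells they were 146, 167 and 114 with the SIX2 label and 208, 181 and 177 with the control label (-0.42 ± 0.21, limma-trend adjusted p = 0.16). The GFP-negative groups did not overlap, yet the difference did not pass the test, and the number of reads was 61 to 273 a library.

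**Figure D3:**
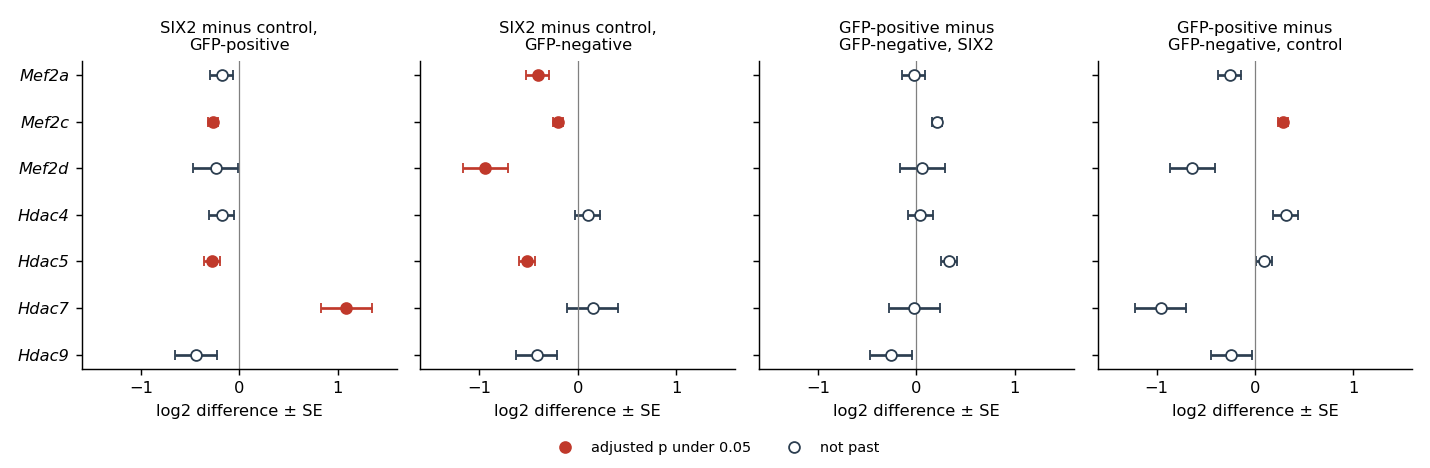
Log2 differences ± SE of the 7 tested genes (horizontal axis) in 4 panels: SIX2 minus control in GFP-positive and in GFP-negative cells, and GFP-positive minus GFP-negative with the SIX2 and with the control label; filled red points passed the limma-trend adjusted p of 0.05. The filled points are Mef2c, Hdac5 and Hdac7 in the first panel, Mef2a, Mef2c, Mef2d and Hdac5 in the second, none in the third and Mef2c in the fourth.

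The second question of the design is how GFP-positive and GFP-negative cells differ under each plasmid label. With the control label only Mef2c was called: it was higher in GFP-positive than in GFP-negative cells (log2 difference 0.28 ± 0.05, SE, limma-trend adjusted p = 0.0149). That is 1 of 7 genes, where 3.48% of all genes were called and 0.919% were called higher. The call was lost without replicate 1 of the GFP-positive control (0.27, adjusted p = 0.0661) or of the GFP-negative control libraries (0.25, adjusted p = 0.0805). Control libraries also did not overlap for Mef2d (-0.64 ± 0.23, limma-trend adjusted p = 0.14) and Hdac7 (-0.96 ± 0.26, adjusted p = 0.0578), which makes 3 of 7 genes without overlap beside 27.2% of all genes. Both passed the test without GFP-positive control replicate 3 (Mef2d -0.92, adjusted p = 0.0181, and Hdac7 -1.17, adjusted p = 0.0232).

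With the SIX2 label none of the 7 genes was called between GFP-positive and GFP-negative cells by limma-trend, where 0.192% of all genes were called, 0.0137% higher and 0.178% lower. At an unadjusted p under 0.05 there were 2, Mef2c (0.21 ± 0.05, SE, limma-trend adjusted p = 0.121) and Hdac5 (0.33 ± 0.08, adjusted p = 0.116), both higher in GFP-positive cells in all 3 libraries. Those 2 of 7 genes without overlap stand beside 17.2% of all genes. edgeR's quasi-likelihood test called 0 and DESeq2 called both. Mef2d, the gene with the largest SIX2-label change in GFP-negative cells, differed by 0.06 ± 0.23 (limma-trend adjusted p = 0.941) between the SIX2-labelled populations. Mef2a (-0.03, adjusted p = 0.934), Hdac4 (0.04, adjusted p = 0.93) and Hdac7 (-0.02, adjusted p = 0.981) had differences of that order too, and Hdac9 had -0.26 ± 0.21 (adjusted p = 0.624).

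When the SIX2-label difference of GFP-negative cells was subtracted from that of GFP-positive cells, none of the 7 genes was called by limma-trend, edgeR or DESeq2, where 0.0% of all genes were called by limma-trend. Hdac7 was the only one with an unadjusted p under 0.05. Over all 14580 genes limma-trend and edgeR called 0, 2437 had an unadjusted limma-trend p under 0.05, and DESeq2 called 562. A member called in one population and not in the other is thus not shown to respond differently.

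Genes that Mef2 factors are known to bind or need in muscle were next counted from a list of 24 tested genes. The list was chosen with earlier results of these data known, so its counts are a description and not a test. Some listed genes have small standard errors (0.06 for Tnnc1 and Myog and 0.05 for Pgam2 in both populations), which makes small differences easier to call. The shares of all genes are thus not a like comparison. With the SIX2 label 13 of 24 fell and none rose in GFP-positive cells (median log2 difference -0.22, beside -0.01 over all genes and 11.2% of all genes called lower), and 14 fell and 1 rose in GFP-negative cells (median -0.35, beside 0.00 and 14.3%). The 10 genes lower in both were Ckm, Des, Dmpk, Lmod3, Myog, Myom1, Myom2, Pgam2, Smyd1 and Tnnc1. Lmod3, a nucleator of thin filaments, averaged 9327 ± 653 normalized counts in GFP-positive SIX2, 16018 ± 1052 in GFP-positive control, 8204 ± 400 in GFP-negative SIX2 and 12399 ± 822 in GFP-negative control libraries (SD, n = 3 each). Its log2 differences were -0.78 (limma-trend adjusted p = 9.58e-06) in GFP-positive and -0.59 (adjusted p = 6.41e-05) in GFP-negative cells. Ckm, muscle creatine kinase, averaged 7850 ± 926, 12127 ± 1059, 6863 ± 429 and 11062 ± 52.6 in the same groups and fell by 0.63 (limma-trend adjusted p = 0.000147) and 0.69 (adjusted p = 6.38e-05) on the log2 scale. Tnnc1, slow troponin C, averaged 85641 ± 4865, 127794 ± 10979, 69476 ± 1480 and 104420 ± 3701, with log2 differences of -0.58 (limma-trend adjusted p = 3.94e-05) and -0.59 (adjusted p = 3.51e-05). Des, the intermediate filament desmin, averaged 135387 ± 7159, 165778 ± 11175, 105967 ± 7901 and 168413 ± 15478 and fell by 0.29 (limma-trend adjusted p = 0.0159) in GFP-positive and 0.67 (adjusted p = 5.55e-05) in GFP-negative cells.

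Not all listed genes that fell encode contractile proteins. Jun, an immediate early factor that Mef2 can drive, averaged 3876 ± 269 normalized counts in GFP-positive SIX2 and 5800 ± 10.9 in GFP-positive control libraries (SD, n = 3 each, log2 difference -0.58, limma-trend adjusted p = 0.000156). Jun, Klf4 and Xirp1 were called lower in GFP-positive cells only, and Hspb7, Mb, Srpk3 and Tnni1 in GFP-negative cells only, and the limma-trend test of the difference between the populations passed for none of them. The gene that rose was Xirp2 in GFP-negative cells (log2 difference 0.76 ± 0.16, SE, limma-trend adjusted p = 0.00266). The count of lower genes in GFP-positive cells was 8 after quantile normalization and 7 without SIX2 replicate 2, and in GFP-negative cells 10 after quantile normalization and 11 without control replicate 3. Most of these genes also depend on MyoD-family factors, and Myog itself was lower with the SIX2 label (log2 difference -0.19, limma-trend adjusted p = 0.0339, in GFP-positive and -0.24, adjusted p = 0.0103, in GFP-negative cells), while the stem cell and myoblast markers moved both ways, as given above. The part of these in the target genes was not tested. Between the control libraries 3 of 24 were higher in GFP-positive cells, beside 0.919% of all genes, but 0 without GFP-negative control replicate 1 and 1 without GFP-positive control replicate 1. The 3 were Jun (0.48, limma-trend adjusted p = 0.00748), Lmod3 (0.37, adjusted p = 0.0171) and Tnnc1 (0.29, adjusted p = 0.0297).

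**Figure D4:**
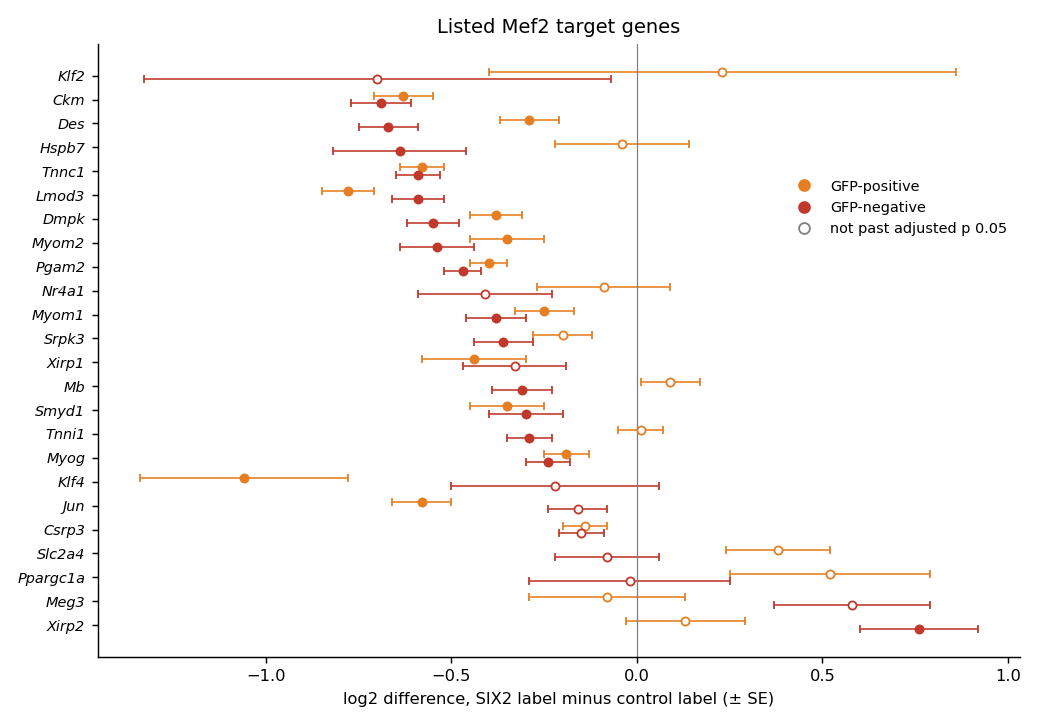
SIX2-minus-control log2 differences ± SE (horizontal axis) of the 24 listed Mef2 target genes, with the GFP-positive value (orange) above the GFP-negative value (red) for each gene; open symbols did not pass the limma-trend adjusted p of 0.05. Filled points lie left of 0 for 13 genes in GFP-positive and 14 in GFP-negative cells, and Xirp2 in GFP-negative cells is the filled point right of 0.

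Of 20 tested kinases known to signal to class IIa deacetylases, 3 rose and 3 fell with the SIX2 label in GFP-positive cells, beside 23.3% of all genes called, and 2 rose and 3 fell in GFP-negative cells, beside 27.9%, so that their shares were near those of all genes. Sik1, a salt-inducible kinase that phosphorylates class IIa deacetylases in muscle, averaged 719 ± 135 normalized counts in GFP-positive SIX2, 1122 ± 232 in GFP-positive control, 643 ± 54.3 in GFP-negative SIX2 and 1436 ± 99.1 in GFP-negative control libraries (SD, n = 3 each). It fell by 0.64 (limma-trend adjusted p = 0.00698) and 1.16 (adjusted p = 9.22e-05) on the log2 scale. Camk2a, a calcium/calmodulin-dependent kinase, had 522, 550 and 619 normalized counts in GFP-positive SIX2, 1318, 1162 and 1037 in GFP-positive control, 563, 652 and 559 in GFP-negative SIX2 and 975, 1039 and 1132 in GFP-negative control libraries, and fell by 1.05 (limma-trend adjusted p = 2.5e-05) and 0.83 (adjusted p = 0.000129). Other kinases were higher. Camk1g (1.12, limma-trend adjusted p = 0.00423, and 0.73, adjusted p = 0.0353) and the upstream kinase Camkk1 (1.00, adjusted p = 0.0153, and 1.13, adjusted p = 0.00656) rose in both populations. In GFP-positive cells Camk2b rose (0.70, limma-trend adjusted p = 0.00135) and Camk2g fell (-0.40, adjusted p = 0.00199), and in GFP-negative cells Prkaa2, a catalytic subunit of AMPK, fell (-0.30, adjusted p = 0.015).

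Among the 7 genes of the 14-3-3 family, 1 rose and 2 fell in each population, beside 23.3% of all genes called in GFP-positive and 27.9% in GFP-negative cells. Ywhaq averaged 7251 ± 777 normalized counts in GFP-positive SIX2, 5182 ± 387 in GFP-positive control, 8017 ± 777 in GFP-negative SIX2 and 5377 ± 76.8 in GFP-negative control libraries (SD, n = 3 each). It rose by 0.48 (limma-trend adjusted p = 0.00146) and 0.57 (adjusted p = 0.000345). Ywhaz fell in both (-0.31, limma-trend adjusted p = 0.000731, and -0.18, adjusted p = 0.0208), Ywhae in GFP-positive cells (-0.35, adjusted p = 0.00287) and Ywhag in GFP-negative cells (-0.48, adjusted p = 0.000897). Of 11 calcineurin and NFAT genes none was called in GFP-positive cells by limma-trend, edgeR or DESeq2, and 2 fell in GFP-negative cells, Ppp3cc, a catalytic subunit of the calcium-dependent phosphatase (-1.24 ± 0.36, SE, adjusted p = 0.0199), and Rcan1, its regulator (-0.40, adjusted p = 0.0215), while 0 were called without GFP-negative control replicate 1.

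Among corepressor genes, Tbl1x rose in both populations and Ctbp1 fell in GFP-negative cells. Tbl1x, a subunit of a nuclear corepressor complex that class IIa deacetylases join, averaged 1455 ± 125 normalized counts in GFP-positive SIX2, 1025 ± 85.8 in GFP-positive control, 1648 ± 75.9 in GFP-negative SIX2 and 1203 ± 78.2 in GFP-negative control libraries (SD, n = 3 each). It rose by 0.50 (limma-trend adjusted p = 0.00133) and 0.46 (adjusted p = 0.00217). Ctbp1, a corepressor that binds class IIa deacetylases, fell by 0.95 in GFP-negative cells (limma-trend adjusted p = 0.000101). Of 19 genes of Mef2 coactivators and activating kinases, 4 rose and 1 fell in GFP-positive cells, beside 23.3% of all genes called, and 1 rose and 1 fell in GFP-negative cells, beside 27.9%. Over the alternative settings the GFP-negative count ran from 1 to 6 higher and 1 to 5 lower. Mamstr, a muscle coactivator of Mef2 also called MASTR, averaged 1316 ± 116, 1853 ± 160, 1081 ± 145 and 1609 ± 98.5 and fell in both (-0.49, limma-trend adjusted p = 0.0043, and -0.58, adjusted p = 0.00119). The genes that rose in GFP-positive cells were Map2k3 (0.40, limma-trend adjusted p = 0.00133), Map2k6 (2.04, adjusted p = 0.00992), Mapk11 (1.29, adjusted p = 0.022) and Carm1 (0.51, adjusted p = 0.0122). The first 3 belong to the p38 kinase pathway that phosphorylates Mef2. Of the same pathway, Mapk14 (0.29, limma-trend adjusted p = 0.224) and Mapk12 (0.28, adjusted p = 0.498) were not called in GFP-positive cells. Map2k6 stood at 33.9, 25.3 and 21.2 normalized counts in SIX2 libraries, against 3.06, 6.09 and 9.28 in control libraries, on 4 to 19 reads. In GFP-negative cells Crebbp, a histone acetyltransferase that Mef2 recruits, rose (0.53, limma-trend adjusted p = 0.000703).

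Of 7 other deacetylase genes, 2 rose in GFP-positive cells, beside 23.3% of all genes called, and 2 rose and 1 fell in GFP-negative cells, beside 27.9%. Hdac1, a catalytic class I deacetylase, averaged 2346 ± 130 normalized counts in GFP-positive SIX2, 1636 ± 112 in GFP-positive control, 2395 ± 62.4 in GFP-negative SIX2 and 1939 ± 98.0 in GFP-negative control libraries (SD, n = 3 each), and rose by 0.52 (limma-trend adjusted p = 0.000229) and 0.31 (adjusted p = 0.00699). This is the opposite direction to Hdac5. Hdac10 rose by 0.35 (limma-trend adjusted p = 0.0463) and 0.38 (adjusted p = 0.0307). Hdac2 fell by 1.27 in GFP-negative cells (limma-trend adjusted p = 0.0104). Between the control libraries, the called genes of the regulator, corepressor and deacetylase lists stood below their GFP-negative level in GFP-positive cells. They were Hdac2 (-1.39, limma-trend adjusted p = 0.0364), Ctbp1 (-0.80, adjusted p = 0.00565), Mapk14, which encodes p38 alpha (-0.68, adjusted p = 0.0389), and Map2k3 (-0.31, adjusted p = 0.0348). Ctbp1 kept its call under all 15 settings and 12 leave-outs, while Hdac2 lost it under 2 settings and 7 leave-outs, Mapk14 under 6 and 6, and Map2k3 under 3 and 7, each with a replicate block among them.

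The pattern across the 12 libraries was compared between genes by Pearson's r of log2 values, as a description over libraries that share their depth, normalization and group. Mef2a and Mef2d varied together (r = 0.896), as did Mef2c and Hdac5 (0.822), while Hdac7 ran opposite to Mef2c (-0.813) and Hdac5 (-0.667). The genes most like Mef2a were Ube3b (0.97), Csrnp2 (0.95) and Slc20a2 (0.946), those most like Mef2c were Alkbh5 (0.971), Abcf1 (0.962) and Dusp3 (0.952), and those most like Mef2d were Smap1 (0.983), Fam214b (0.979) and Adipor2 (0.978). Hdac5 was most like Dmpk (0.964), Txlnb (0.962) and Camta2 (0.962), and Hdac7 most like P4ha3 (0.943), Gpank1 (0.933) and Aplf (0.93). Hdac4 and Hdac9 had weaker partners, led by Cnnm4 (0.886) and Myo7a (0.909). At r of at least 0.9 there were 202 genes with Hdac5, 139 with Mef2d, 32 with Mef2c, 22 with Mef2a, 11 with Hdac7, 1 with Hdac9 and 0 with Hdac4, of 14580.

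Mef2d, and a part of the genes most like it, have transcripts with a very GC-rich stretch. The most GC-rich 200 bases of the Mef2d transcript are 80.5% G or C, at percentile 94.8 of the 23550 genes matched to the annotation. Of the 139 genes like Mef2d, 39.6% were in the top 10% of the 14580 tested genes for such a window, beside 10.2% of all tested genes. Of the genes like Hdac7 it was 36.4% of 11, of those like Mef2a 27.3% of 22, and of those like Hdac5 1.49% of 202. Among the named genes most like Mef2d, Smap1 was at percentile 94.1 of the matched genes for this window, Fam214b at 72.4 and Adipor2 at 32.8. Percentiles over matched genes do not place a gene within the top 10% of tested genes. Smap1, the closest, had 429, 238 and 194 normalized counts in GFP-positive SIX2, 203, 283 and 510 in GFP-positive control, 222, 294 and 276 in GFP-negative SIX2 and 675, 645 and 643 in GFP-negative control libraries. As for Mef2d, GFP-positive SIX2 replicate 1 and GFP-positive control replicate 3 were the highest of their groups, and the GFP-negative control libraries were the highest of all. Hdac2 (1929, 1087 and 712, then 839, 1084 and 1768, then 935, 1234 and 1771, then 3087, 2859 and 3255 in the groups in the same order) was also highest in the GFP-negative control libraries. The median log2 deviation of all genes in that top 10% was 0.00508, -0.0354 and -0.107 in GFP-positive SIX2, -0.134, -0.0783 and 0.0227 in GFP-positive control, -0.00566, 0.0334 and 0.0678 in GFP-negative SIX2 and 0.157, 0.1 and 0.154 in GFP-negative control libraries. The part of this deviation in the Mef2d values was not tested. An alternative chosen after seeing the data removed the trend on this window, which is an average over genes. With it the log2 difference of Mef2d in GFP-negative cells was -0.84 (limma-trend adjusted p = 0.00588).

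**Figure D5:**
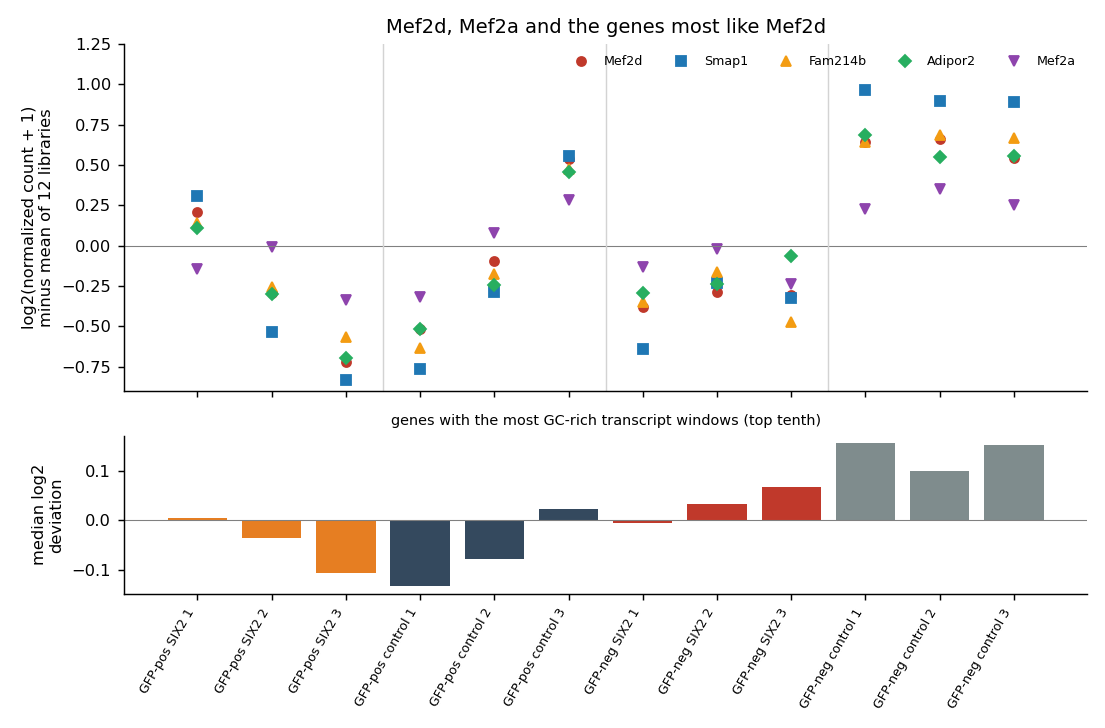
Upper panel: log2 deviation from the 12-library mean (vertical axis) of Mef2d, Smap1, Fam214b, Adipor2 and Mef2a in each library, in the order GFP-positive SIX2, GFP-positive control, GFP-negative SIX2, GFP-negative control; lower panel: median log2 deviation of the genes in the top 10% for the most GC-rich 200-base transcript window. The 3 GFP-negative control libraries stand highest for Mef2d and in the lower panel, and the lower panel spans -0.134 to 0.157.

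The protein-coding genes on either side of each member were also read, beside 23.3% of all genes called with the SIX2 label in GFP-positive and 27.9% in GFP-negative cells. Lrrc28, Rfxank, Tmem161b, Ndufa10 and G6pc3 were tested and were called with the SIX2 label in neither population. Beside Mef2a, Adamts17 fell in GFP-negative cells (-1.84 ± 0.65, SE, limma-trend adjusted p = 0.0498), at 1.8 to 7.85 normalized counts with the SIX2 label and 15.9 to 22.2 with the control label, and beside Mef2b, Tmem161a fell there (-0.36, adjusted p = 0.00788). Beside Mef2d, Iqgap3 rose with the SIX2 label in both populations (0.65, limma-trend adjusted p = 0.026, in GFP-positive and 0.69, adjusted p = 0.016, in GFP-negative cells), opposite to Mef2d. Beside Mef2c, Cetn3 rose in GFP-negative cells (0.39, limma-trend adjusted p = 0.0218). Beside Hdac7, Vdr, the vitamin D receptor gene, averaged 39.4 ± 22.2 normalized counts in GFP-positive SIX2 and 13.2 ± 6.11 in GFP-positive control libraries (SD, n = 3 each, log2 difference 1.45, limma-trend adjusted p = 0.0434). Twist1 and Twist2, the neighbours of Hdac9 and Hdac4 and known repressors of Mef2 function, stayed at or below 1.59 and 6.43 normalized counts.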

How the data were processed

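RNA of sorted, cultured and transfected muscle stem cells was made into SMART-Seq2 cDNA libraries with Tn5 fragmentation, per the labels' protocols. This protocol does not mark strand. FastQC 0.12.1, MultiQC 1.19, STAR 2.7.11a, RSEM 1.3.3, DESeq2 1.42.0 and the build GRCm38 come from what is listed per the submitters' processing notes, with settings not given in the sources used here. The deposited values are normalized counts per gene, a signal that the authors scaled by library size factors. Whole reads were recovered for 100% of values within 1e-04, in 12 libraries of 12.4 to 47.3 reads in units of 1e6.

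Groups came from the sample titles. Values were taken as log2(normalized count + 1) and fitted with 4 group means over 12 libraries by limma-trend (limma 3.58.1 under R 4.3.3), two-sided, Benjamini-Hochberg adjusted at 0.05. A gene entered when 3 or more libraries held 10 or more normalized counts. Differences on this scale understate the change of low genes. Alternatives included edgeR 4.0.16 and DESeq2 1.42.0 on the recovered reads. The fit was tested on simulated data, with counts drawn independently for each gene and library and no deviation shared by genes of a library. The changed genes were taken only from those with mean reads well above the filter, so recovery of lower genes was not simulated. Of 100 genes changed 1.5-fold it recovered 46% in the GFP-positive and 52% in the GFP-negative comparison. Of 100 genes changed 2-fold it recovered 83% in each. A gene that was not called is thus not shown to be unchanged. No block was used, and same-numbered libraries did not deviate together.

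The members and gene lists were chosen with earlier results of these data known. Named genes were the members, up to 4 called genes of each list and comparison with the smallest p, the 3 genes with the highest r to each member (mean of at least 50) and the nearest protein-coding genes; other called list genes and overlapping genes were named after their values were seen. The authors' RT-qPCR of Six2 was not used here, and part of the corepressor list is not reported here. Lengths, GC and positions came from GENCODE M21, matched for 99.8% of gene identifiers, and promoters from RefSeq. Figures were drawn with matplotlib 3.10.9.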

Additional observations from a re-analysis of the deposited data

How the results depend on the processing

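No called difference changed direction under any setting. For SIX2 against control in GFP-negative cells, 2 members were called after quantile normalization and 2 to 4 when 1 library was left out, and library weights raised the genes called to 6142, from 4075. For GFP-positive against GFP-negative with the control label, members called were 4 with library weights, 2 with DESeq2 and 0 to 3 with 1 library left out, and genes called, 507 as reported, were 1520 with weights, 1087 with DESeq2 and 68 to 820 with 1 library left out. With the SIX2 label, 1 member was called with the GC trend removed, 2 with DESeq2 and 0 to 1 with 1 library left out, and genes called were 292 with DESeq2 and 13 to 60 with 1 library left out. For the difference between the populations, 3 genes were called with the trend of the most GC-rich window removed (chosen after seeing the data), 282 with weights, 562 with DESeq2 and 0 to 171 with 1 library left out. The cause was not tested. Among the tested members, Hdac7 and Hdac9 had the fewest reads, 61 to 318 a library.

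Pairing of libraries by replicate number was not detected, though this does not exclude it. Over 18 same-numbered pairs the correlation of deviations ran from -0.203 to 0.0527, and 0 passed 0.1. A replicate block left the members called at 4 in GFP-negative and 3 in GFP-positive cells. Between populations with the control label it gave 298 genes, and with GC trend removed and a replicate block 323 genes and 0 members, Mef2c being at 0.24 (limma-trend adjusted p = 0.0507).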
